A study of Mus musculus with 16 samples.

Results

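The immunity-related GTPases (IRG proteins) are GTP-binding proteins of cell-autonomous defence, and 8 of their genes were followed by symbol: Irgm1, Irgm2, Igtp, Iigp1, Ifi47, Gm4951, Tgtp1 and Tgtp2. All 8 were found among the 33289 Ensembl gene IDs of the deposited table. The libraries came from hemi-brains of C57BL/6J mice aged 3 to 4 months, perfused with PBS and taken 8 h after an injection. The 4 groups were mice labelled Lcn2-/- given lipopolysaccharide (LPS, an outer-membrane component of Gram-negative bacteria), wild type mice given LPS, mice labelled Lcn2-/- given saline, and wild type mice given saline, with 4 libraries each and 16 in all. Lcn2 encodes lipocalin-2, an acute phase protein that captures siderophores, and the series title frames the question as what this protein does for the inflamed brain. The sources used here give neither the dose of LPS nor the allele behind the Lcn2-/- label.

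IRG genes are switched on by interferons, above all interferon gamma, through STAT and IRF transcription factors. The products fall into regulators and effectors. The GMS regulators, named for a methionine in their nucleotide-binding motif, sit on the cell's own membranes and hold the effectors inactive. The GKS effectors carry a lysine there, load onto vacuoles that hold intracellular pathogens and break them open. Irgm1, Irgm2 and Igtp (also called Irgm3) are regulators, while Iigp1, Ifi47, Tgtp1 and Tgtp2 are effectors. In the brain, IRG genes are known from microglia, astrocytes and vascular cells exposed to interferon, and from mouse infections with Toxoplasma.

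The deposited values were log2 RPKM (reads per kilobase of transcript, scaled to library size) after the authors' conditional quantile normalization, and levels below are the same values as RPKM. With no read counts, neither the depth nor a counting error can be stated. Of all genes, 17349 had at least 0.5 RPKM in at least 3 libraries and were tested with limma. Calls were made where the p-value, adjusted over all of these genes, was under 0.05. Saline replicate 4 labelled Lcn2-/- stood apart with 17112 genes at 0.5 RPKM or more, against 16372 to 16497 in the other libraries. Lcn2 itself was at 40.2, 34.1, 38.3 and 37.2 RPKM in LPS libraries labelled Lcn2-/-, against 71.5, 67.8, 66.7 and 82.7 RPKM in wild type LPS libraries. Lcn2 transcript was therefore measured under the label, a gene total does not show from which exons, and the group is called by its label throughout. The summed RPKM of 6 neuron markers was 666 to 725, 685 to 714, 695 to 720 and 663 to 723 in LPS labelled Lcn2-/-, wild type LPS, saline labelled Lcn2-/- and wild type saline libraries, so the tissue label and its markers go together.

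Of the genes, 6 were on chromosome 11 and 2 on chromosome 18 (GENCODE vM21 on GRCm38, the build named mm10 in the submitters' processing notes). Irgm1 lay at chr11:48861968-48871683 on the minus strand, in one cluster with Tgtp1 (chr11:48985327-48994172, minus), Tgtp2 (chr11:49057194-49064206, minus) and Ifi47 (chr11:49076587-49096974, plus). Igtp (chr11:58199556-58207591, plus) and Irgm2 (chr11:58199618-58222782, plus) overlap in a second cluster. Gm4951 (chr18:60212080-60247820, plus) and Iigp1 (chr18:60376027-60392634, plus) form the third.

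Copies limited what could be told apart. The coding sequences of Tgtp1 and Tgtp2 differed at 4 of 1245 bases (99.7% identity), and 81.2% of Tgtp1's and 86.6% of Tgtp2's windows of 50 bases also occurred in another gene's transcripts. For Igtp the share of such windows was 11.8% and for Irgm2 7.8%. An Irgm2 transcript begins inside Igtp's first exon, and 162 exon bases belong to both. Ifi47 had 4.8%, Gm4951 4.6%, Iigp1 1.7% and Irgm1 0.4%. Gm4951 and Iigp1 were the next closest pair, at 86.4% coding identity, followed by Igtp and Irgm2 at 70.8%. Exons of Olfr56 and Gm12188 overlap 217 exon bases of Ifi47 (8.8%), and exons of Gm12185 overlap 223 of Tgtp1 (7.0%). The sources used here do not say whether the authors' counting used strand or split reads between copies or overlapping genes. Values of Tgtp1 and Tgtp2 singly are therefore uncertain. So are those of Igtp and Irgm2 over their shared exon, and those of Ifi47 over its overlapped exon bases.

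The start regions of the members on chromosome 11 are shown because most of them carry a pair of motif matches side by side. The windows below run from 120 bases before the RefSeq start site to the base before it (RefSeq on GRCm38.p6, gene orientation, 5′ to 3′), and all 6 had an entry. Capitals mark matches to 2 motifs. The ISRE-type motif was GAAA, any 2 bases and GAAA again, the core of an interferon-stimulated response element bound by IRF proteins. The GAS-type motif was TTCNNNGAA, the shape of a gamma-activated site bound by STAT dimers, which reads the same on both strands. Both strands were searched for each.
Irgm1: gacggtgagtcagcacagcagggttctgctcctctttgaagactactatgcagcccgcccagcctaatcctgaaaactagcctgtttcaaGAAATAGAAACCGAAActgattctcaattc
Irgm2: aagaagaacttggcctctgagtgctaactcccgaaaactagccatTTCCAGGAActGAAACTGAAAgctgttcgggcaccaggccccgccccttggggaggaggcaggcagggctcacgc
Igtp: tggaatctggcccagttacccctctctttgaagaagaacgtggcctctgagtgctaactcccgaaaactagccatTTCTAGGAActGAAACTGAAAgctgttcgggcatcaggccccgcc
Tgtp1: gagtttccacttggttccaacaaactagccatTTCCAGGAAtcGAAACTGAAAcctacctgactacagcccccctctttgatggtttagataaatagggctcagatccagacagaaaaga
Tgtp2: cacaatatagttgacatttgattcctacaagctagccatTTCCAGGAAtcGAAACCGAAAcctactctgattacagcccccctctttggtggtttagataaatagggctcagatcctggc
Ifi47: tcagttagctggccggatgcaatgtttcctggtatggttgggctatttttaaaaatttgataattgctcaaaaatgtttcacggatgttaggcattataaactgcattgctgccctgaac
The windows lie at chr11:48871421-48871540 (minus) for Irgm1, chr11:58214857-58214976 (plus) for Irgm2, chr11:58199436-58199555 (plus) for Igtp, chr11:48992247-48992366 (minus) for Tgtp1, chr11:49064213-49064332 (minus) for Tgtp2 and chr11:49076467-49076586 (plus) for Ifi47.

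In Irgm2, Igtp, Tgtp1 and Tgtp2 the GAS-type match began 11 bases before the ISRE-type match, with 2 bases between them. The motifs joined at this spacing occurred in 5 of 32851 RefSeq promoters of 300 bases (0.0152%). They were those of these 4 genes and of Gm12185, a family gene that overlaps Tgtp1 on the same strand. The joined pattern has the order and spacing of these same 4 promoters, so its rarity elsewhere is a description and not a test. Over the joined match and 15 bases on each side, Irgm2 and Igtp were identical at 49 of 51 bases, Tgtp1 and Tgtp2 at 39, and the Irgm2 and Igtp promoters matched the Tgtp promoters at 34 to 36. Irgm1 had 2 overlapping ISRE-type matches, starting 30 and 24 bases before the start site, and no GAS-type match. In Ifi47 neither motif's letters occurred in this window. Of all 300-base promoters 3.44% held the ISRE-type motif, 8.30% the GAS-type motif and 0.454% held both. A match describes letters only, and binding was not measured.

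**Figure D1:**
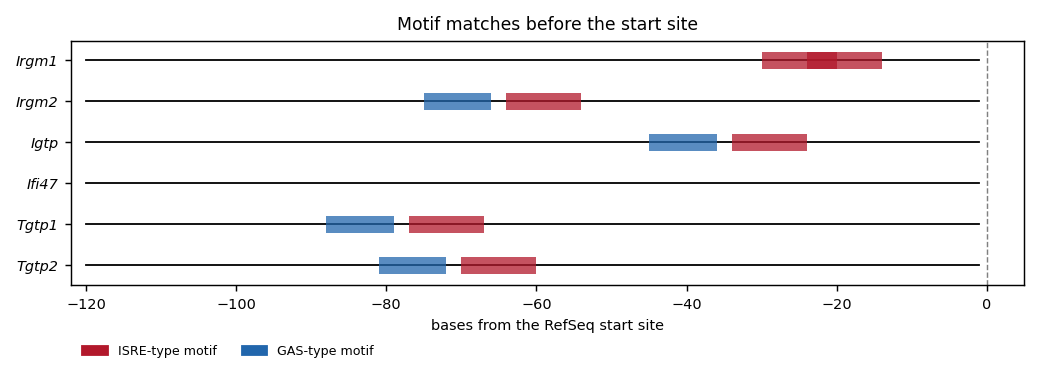
Positions of the motif matches before the RefSeq start site (dashed line at 0) of the 6 members on chromosome 11, in bases; red bars are ISRE-type and blue bars GAS-type matches. The pair has the same spacing in Irgm2, Igtp, Tgtp1 and Tgtp2, Irgm1 has 2 overlapping red matches, and Ifi47 has none.

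Every member was higher after LPS, in mice of both labels. The LPS and saline libraries of the same label did not overlap for any of the 8 genes (8 of 8 in each label). Of all genes tested, 18.6% labelled Lcn2-/- and 13.8% in wild type were higher without overlap. Tgtp1 and Tgtp2 count among the 8 but were not among the genes tested. Of the 6 members tested, 6 rose in mice labelled Lcn2-/- (20.7% of all genes tested were called higher) and 6 rose in wild type mice (11.4% called higher). The median log2 difference of the 6 was 3.61 labelled Lcn2-/- and 2.59 in wild type, against -0.03 and -0.02 for all genes tested. On saline libraries alone Ifi47, with 2 labelled Lcn2-/- and 0 wild type ones at 0.5 RPKM or more, and Gm4951, with 0, would not have passed the filter on low values, so their LPS tests are not independent of it, and Tgtp1 and Tgtp2 reached 0.5 RPKM in 0 libraries. In bulk tissue a higher level per cell and more cells that carry the transcript cannot be told apart.

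Among the regulators, Irgm1, whose product acts on Golgi, lysosomal and mitochondrial membranes, was the most abundant. It was at 21.5, 19.4, 22.6 and 19.6 RPKM in LPS libraries labelled Lcn2-/- and at 8.26, 7.20, 5.31 and 11.1 RPKM in wild type LPS libraries. Saline libraries held 1.53, 1.76, 1.68 and 1.51 RPKM labelled Lcn2-/- and 1.63, 1.51, 1.61 and 1.60 RPKM in wild type. The LPS groups stood clear of each other and of saline, and the 8 saline libraries were intermixed. Irgm1 rose 12.8-fold with LPS in mice labelled Lcn2-/- (log2 difference 3.68 ± 0.15 SE, limma adjusted p = 2.32e-11) and 4.85-fold in wild type mice (2.28 ± 0.15, adjusted p = 1.11e-08).

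Igtp, a regulator on the endoplasmic reticulum and lipid droplets, was at 15.3, 10.6, 12.2 and 13.5 RPKM in LPS libraries labelled Lcn2-/- and at 7.85, 5.66, 5.04 and 9.32 RPKM in wild type LPS libraries. After saline it was at 1.39, 1.85, 1.35 and 1.60 RPKM labelled Lcn2-/- and at 1.48, 1.22, 2.03 and 1.63 RPKM in wild type. The lowest labelled LPS library was above the highest wild type one. LPS raised Igtp 8.33-fold in mice labelled Lcn2-/- (3.06 ± 0.19, limma adjusted p = 3.31e-09) and 4.32-fold in wild type mice (2.11 ± 0.19, adjusted p = 4.23e-07).

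Irgm2, a Golgi-associated regulator also known for restraining caspase-11 responses to LPS, rose least of the regulators. Its LPS libraries held 3.87, 3.03, 3.21 and 3.86 RPKM labelled Lcn2-/- and 2.44, 2.28, 1.89 and 3.08 RPKM in wild type. Its saline libraries held 0.908, 1.13, 0.820 and 0.996 RPKM labelled Lcn2-/- and 0.859, 0.851, 1.04 and 0.771 RPKM in wild type. Wild type LPS replicate 4, at 3.08 RPKM, fell inside the range of the labelled LPS libraries. The rise was 3.64-fold in mice labelled Lcn2-/- (1.86 ± 0.14, limma adjusted p = 4.55e-08) and 2.73-fold in wild type mice (1.45 ± 0.14, adjusted p = 1.24e-06).

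Of the effectors, Iigp1, the best studied GTPase to load onto Toxoplasma vacuoles, rose most. It was at 20.0, 17.2, 18.5 and 18.4 RPKM in LPS libraries labelled Lcn2-/- and at 8.16, 7.75, 6.08 and 10.6 RPKM in wild type LPS libraries. After saline it was at 0.632, 1.14, 0.652 and 0.514 RPKM labelled Lcn2-/- and at 0.510, 0.454, 0.891 and 0.697 RPKM in wild type. Its saline values lay near the filter of 0.5 RPKM, while its LPS values overlapped those of Irgm1. The rise was 26.4-fold in mice labelled Lcn2-/- (4.72 ± 0.24, limma adjusted p = 2.17e-10), the 35th largest of 17349 genes, and 13.0-fold in wild type mice (3.70 ± 0.24, adjusted p = 7.43e-09), the 39th largest.

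Ifi47, an effector named as an interferon gamma-induced gene, was at 8.55, 8.12, 8.46 and 6.61 RPKM in LPS libraries labelled Lcn2-/- and at 3.37, 3.15, 2.61 and 4.46 RPKM in wild type LPS libraries. Saline libraries held 0.543, 0.550, 0.435 and 0.369 RPKM labelled Lcn2-/- and 0.490, 0.257, 0.394 and 0.472 RPKM in wild type. All 8 LPS libraries exceeded all 8 saline libraries by a wide margin. LPS raised Ifi47 16.9-fold in mice labelled Lcn2-/- (4.08 ± 0.20, limma adjusted p = 2.01e-10) and 8.52-fold in wild type mice (3.09 ± 0.20, adjusted p = 1.03e-08).

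Gm4951, the family gene closest in sequence to Iigp1, was scarcer. Its LPS libraries held 1.16, 0.876, 0.893 and 1.13 RPKM labelled Lcn2-/- and 0.667, 0.522, 0.434 and 0.763 RPKM in wild type. Its saline libraries held 0.0790, 0.0650, 0.0697 and 0.158 RPKM labelled Lcn2-/- and 0.0840, 0.0951, 0.0596 and 0.0754 RPKM in wild type. The LPS groups did not overlap, and the highest saline value came from the library that stood apart. Gm4951 rose 11.6-fold in mice labelled Lcn2-/- (3.54 ± 0.29, limma adjusted p = 1.02e-07) and 7.52-fold in wild type mice (2.91 ± 0.29, adjusted p = 1.45e-06). In a saline library up to 200 other genes had exactly the same value as Gm4951, so these folds rest on the low end of the scale: computed as log2(RPKM + 0.5), the differences were 1.35 labelled Lcn2-/- and 0.91 in wild type, both called.

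Tgtp1 and Tgtp2, the T cell-specific GTPase copies, were the least abundant members. Tgtp1 was at 0.492, 0.302, 0.431 and 0.438 RPKM in LPS libraries labelled Lcn2-/- and at 0.239, 0.230, 0.244 and 0.162 RPKM in wild type LPS libraries. Tgtp2 was at 0.270, 0.158, 0.238 and 0.257 RPKM in LPS libraries labelled Lcn2-/- and at 0.103, 0.127, 0.115 and 0.113 RPKM in wild type LPS libraries. For each copy the labelled LPS libraries all exceeded the wild type ones. Saline values of Tgtp1 ranged from 0.0404 to 0.0716 RPKM labelled Lcn2-/- and from 0.0436 to 0.0819 RPKM in wild type. Saline values of Tgtp2 ranged from 0.0418 to 0.0527 RPKM labelled Lcn2-/- and from 0.0436 to 0.0576 RPKM in wild type. Between 53 and 1440 other genes had exactly the same value as a Tgtp copy in the same saline library, against 1 to 51 in an LPS library, so the saline level is the tied low end of the normalized scale and not a resolved measurement.

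Because neither copy passed the filter, both were read from a fit over all 33289 genes, in which the median gene moved by -0.32 with LPS labelled Lcn2-/- and by -0.22 in wild type. In that fit Tgtp1 rose by 3.01 ± 0.28 labelled Lcn2-/- (limma adjusted p = 4.26e-07) and by 1.87 ± 0.28 in wild type (adjusted p = 8.26e-05) on the log2 scale. Tgtp2 rose by 2.28 ± 0.26 labelled Lcn2-/- (adjusted p = 4.50e-06) and by 1.17 ± 0.26 in wild type (adjusted p = 0.00205). In that fit 11.7% of genes labelled Lcn2-/- and 6.94% in wild type were called higher. Since reads may have been split between the copies, their RPKM was also summed. The sum was at 0.762, 0.460, 0.669 and 0.694 RPKM in LPS libraries labelled Lcn2-/- and at 0.342, 0.357, 0.359 and 0.275 RPKM in wild type LPS libraries. It reached 0.5 RPKM in LPS libraries labelled Lcn2-/- only, so its inclusion would rest on high values there and it is given as values with no test. Since the saline level is not resolved, the differences of Tgtp1 and Tgtp2 carry no fold, and their sizes rest on the low end of the scale.

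**Figure D2:**
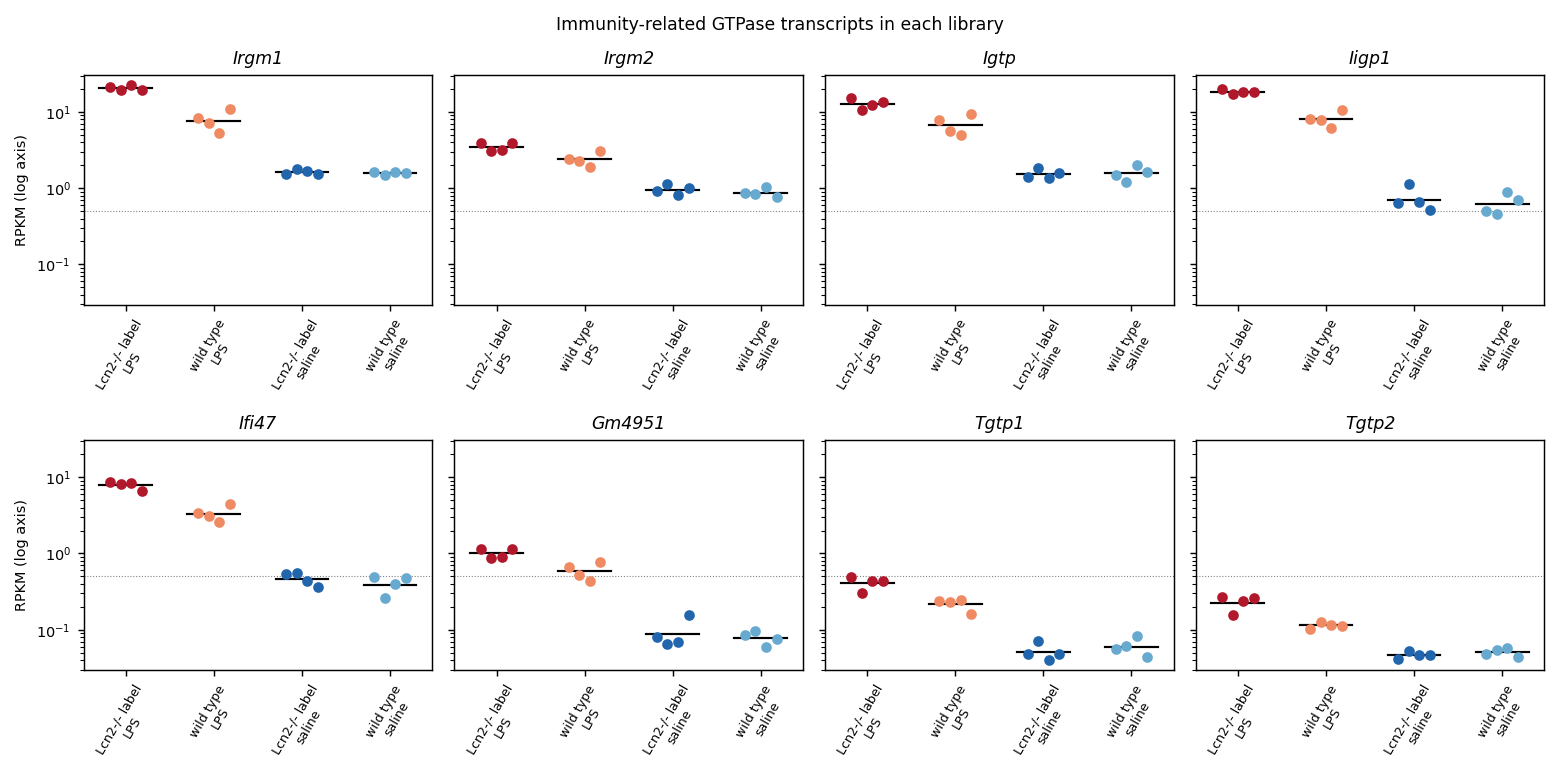
RPKM of each member on a log axis in every library, in the order LPS labelled Lcn2-/-, LPS wild type, saline labelled Lcn2-/- and saline wild type; points are the 4 libraries of a group, bars their geometric mean, and the dotted line is 0.5 RPKM. The LPS libraries lie above the saline libraries of the same label in all 8 panels, and both Tgtp copies stay under the dotted line.

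After LPS the members were higher under the Lcn2-/- label than in wild type. Of the 6 tested, 5 were called higher and 0 lower, where 7.04% of all genes tested were called higher. That share was 4.68% without wild type LPS replicate 3, 4.10% without LPS replicate 3 labelled Lcn2-/- and 13.8% without saline replicate 4 labelled Lcn2-/-, the library that stood apart. The count of members higher was 4 to 6 with any 1 library left out. Without overlap between the groups were 7 of 8 members, where 13.3% of all genes tested were higher without overlap. Tgtp1 and Tgtp2 count among the 7 but were not among the genes tested. The median log2 difference of the 6 was 1.07, against -0.01 for all genes tested. This comparison uses the same LPS libraries as the ones above.

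Irgm1 differed most, 2.69-fold higher in LPS libraries labelled Lcn2-/- (log2 difference 1.43 ± 0.15, limma adjusted p = 3.20e-05), the 59th largest difference of 17349 genes. Ifi47 was 2.37-fold higher (1.25 ± 0.20, adjusted p = 0.000993) and Iigp1 2.32-fold higher (1.21 ± 0.24, adjusted p = 0.00342). Igtp was 1.89-fold higher (0.92 ± 0.19, adjusted p = 0.00504). In these 4 genes each of the 4 labelled LPS libraries exceeded each of the 4 wild type ones, which gave the smallest p an exact permutation test of 4 against 4 allows, 0.0286 two-sided.

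Irgm2 was 1.46-fold higher (0.54 ± 0.14, limma adjusted p = 0.0195), with 1 wild type library inside the labelled range and an exact permutation p of 0.0571. Its call was lost when wild type LPS replicate 2 or 3, or LPS replicate 1 or 4 labelled Lcn2-/-, was left out (adjusted p 0.0505, 0.0664, 0.0523 and 0.0511). Gm4951 was not called at 1.73-fold (0.79 ± 0.29, 95% interval 0.17 to 1.41, adjusted p = 0.0782), although its groups did not overlap, and it was called on the log2(RPKM + 0.5) scale (0.47, adjusted p = 0.00485). In the fit without a filter, where 3.63% of genes were called higher, Tgtp1 differed by 0.92 ± 0.28 (adjusted p = 0.0600) and Tgtp2 by 0.98 ± 0.26 (adjusted p = 0.0324). The summed Tgtp copies, given with no test, were at 0.460 to 0.762 RPKM in LPS libraries labelled Lcn2-/- and 0.275 to 0.359 RPKM in wild type ones.

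After saline no difference between the labels was detected in the members. Of 6 tested, 0 were called by limma and 0 had an unadjusted p under 0.05, the lowest being 0.219, and 0.0461% of all genes were called in either direction (0.0346% higher). With 1 library left out, 2 to 9 of all genes were called higher, and 0 members. The estimates ran from -0.03 for Igtp to 0.26 for Ifi47 on the log2 scale. The 95% interval of the difference was narrowest for Irgm2, at -0.18 to 0.44, and widest of the 6 for Gm4951, at -0.46 to 0.79. With 4 libraries a group, differences within these intervals are not excluded. The bounds are not a limit of detection: calls were adjusted over all genes tested, so larger differences could also go uncalled.

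The difference between the LPS rises under the 2 labels was tested as an interaction, the rise labelled Lcn2-/- minus the rise in wild type. Of 6 members 3 were called, all with the larger rise under the Lcn2-/- label (3.90% of all genes tested were called in that direction). With 1 library left out that share was 2.03% to 6.08%, and it moved by over 1.5 times without wild type LPS replicate 1 or 2, wild type saline replicate 3 or 4, LPS replicate 2 or 3 labelled Lcn2-/- (all below) or saline replicate 4 labelled Lcn2-/- (above). Irgm1 had the largest called interaction at 1.40 ± 0.21 (limma adjusted p = 0.00215), and this call held with each library left out in turn (adjusted p 0.000116 to 0.00710). Igtp (0.95 ± 0.27, adjusted p = 0.0413) and Ifi47 (0.99 ± 0.29, adjusted p = 0.0438) were near the threshold, and each lost its call in 11 of the 16 fits that left out 1 library. Iigp1 had a larger estimate than either but a wider error (1.02 ± 0.33, adjusted p = 0.0647). Irgm2 (0.41 ± 0.20, adjusted p = 0.195) and Gm4951 (0.63 ± 0.41, adjusted p = 0.333) were not called. Estimates were above 0 for all 6.

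**Figure D3:**
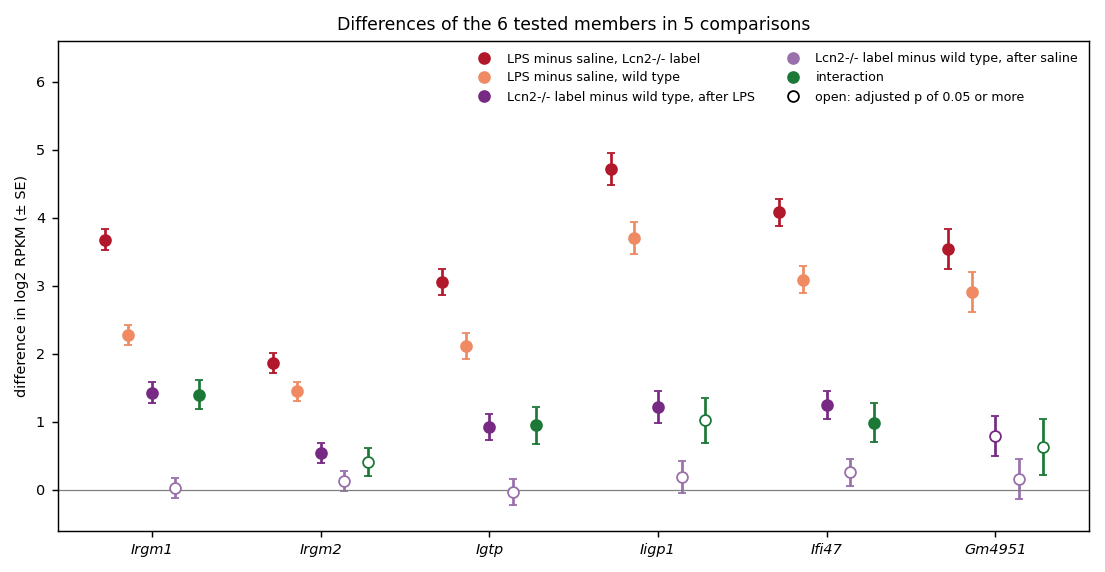
Differences in log2 RPKM (limma estimate ± SE) of the 6 tested members in 5 comparisons; filled points were called at an adjusted p under 0.05 and open points were not. The LPS rises lie between 1.45 and 4.72, the labels differ after LPS by 0.54 to 1.43, and the differences after saline lie near 0.

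The order of the members by level changed with LPS. In LPS libraries labelled Lcn2-/- the geometric means ran from Irgm1 at 20.7 RPKM through Iigp1 at 18.5, Igtp at 12.8, Ifi47 at 7.90, Irgm2 at 3.48, Gm4951 at 1.01 and Tgtp1 at 0.409 to Tgtp2 at 0.226 RPKM. Only Irgm1 and Iigp1 overlapped among neighbours in that order. In wild type LPS libraries the order began with Iigp1 at 7.99, Irgm1 at 7.70 and Igtp at 6.76 RPKM, which overlapped, then Ifi47 at 3.33 and Irgm2 at 2.39, which overlapped too, and ended with Gm4951 at 0.583, Tgtp1 at 0.216 and Tgtp2 at 0.114 RPKM. In both saline groups the regulators Irgm1 and Igtp came first and overlapped, at 1.62 and 1.53 RPKM labelled Lcn2-/- and at 1.59 and 1.56 RPKM in wild type. Irgm2, Iigp1 and Ifi47 followed, each overlapping the next, and Gm4951, Tgtp1 and Tgtp2 came last.

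Summed over the 8 members the level was 65.3 ± 4.83 RPKM in LPS libraries labelled Lcn2-/-, 29.8 ± 7.55 in wild type LPS libraries, 5.53 ± 0.731 in saline libraries labelled Lcn2-/- and 5.29 ± 0.686 in wild type saline libraries (SD, n = 4 each). The 3 regulators made up 56.9% ± 1.10 of that sum in LPS libraries labelled Lcn2-/- and 57.9% ± 1.87 in wild type LPS libraries, against 74.9% ± 2.84 and 76.9% ± 1.94 in the saline libraries of the same labels. The share of Iigp1 was 28.4% and 27.4% in LPS libraries labelled Lcn2-/- and wild type, against 13.0% and 11.9% in the matching saline libraries. That of Irgm2 was 5.35% and 8.20%, against 17.4% and 16.7%. The 3 regulators thus held less of the sum after LPS, and their share overlapped between the labels within each injection. The classes did not move as one. In LPS libraries labelled Lcn2-/- and wild type, the effector Ifi47 held 12.2% and 11.4%, against 8.60% and 7.61% in the matching saline libraries. The effector Tgtp1 held 0.633% and 0.789%, against 0.929% and 1.14%, and Tgtp2 0.351% and 0.405%, against 0.848% and 0.976%. The regulator Irgm1 held 31.8% and 26.5%, against 29.5% and 30.3%. For single members, the Irgm2 share in labelled LPS libraries, at 4.83% to 6.05%, lay below that in wild type ones, at 7.79% to 8.71%, and the Irgm1 share, at 30.25% to 33.9%, lay above that in wild type ones, at 24.5% to 28.0%. The Gm4951 share, at 1.34% to 1.77%, also lay below that in wild type ones, at 1.93% to 2.14%.

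**Figure D4:**
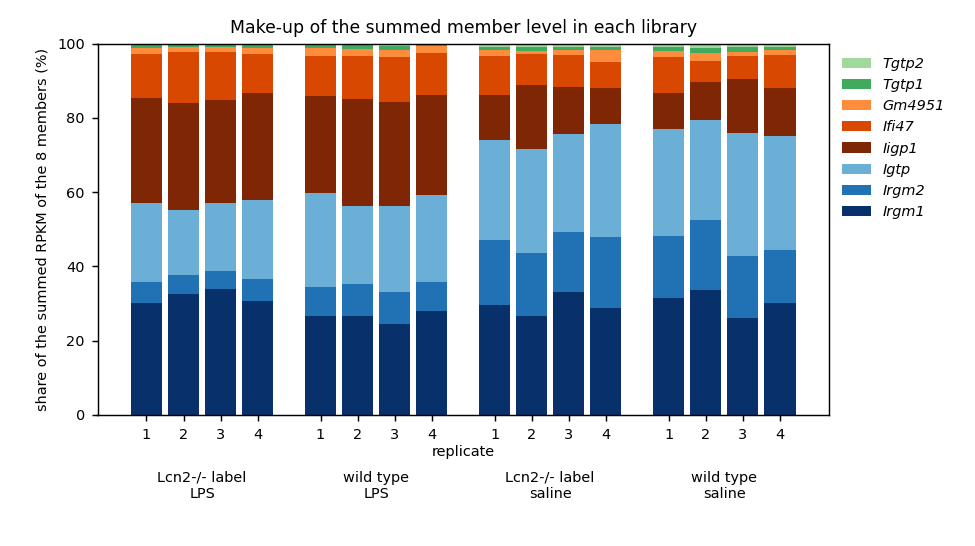
Share of each member in the summed RPKM of the 8 members, in percent, for each library; blue shades are the regulators Irgm1, Irgm2 and Igtp, brown and orange Iigp1, Ifi47 and Gm4951, and green the Tgtp copies. The blue part is 55.3% to 59.7% in LPS libraries and 71.6% to 79.5% in saline libraries.

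After LPS most members were highest in the same library of a group and lowest in another. In wild type LPS libraries replicate 4 was highest for 6 of 8 members and replicate 3 lowest for 6, and the summed level ran from 21.7 to 39.6 RPKM. Tgtp1 went against this, with its lowest value in replicate 4. In LPS libraries labelled Lcn2-/- replicate 1 was highest for 7 members and replicate 2 lowest for 7, over a narrower range of 59.6 to 71.2 RPKM. After saline the extremes were more spread. Saline replicate 2 labelled Lcn2-/- was highest for 7 members, but the lowest values fell in all 4 libraries. In wild type saline libraries replicate 3 was highest for 5 members and lowest for 1, and the lowest value was in replicate 2 for 4 members and in replicate 4 for 3. The members of a library share its RNA and its normalization, so they are not independent readings.

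By the root mean square difference of centred log2 RPKM over the 16 libraries, the gene most like the mean of the 6 tested members was Trim30a (0.13), a TRIM protein induced by Toll-like receptor signals. Gbp3, a guanylate-binding protein, came next (0.14), then Ifit3 (0.20), Slfn2 (0.21) and the peptide transporter gene Tap1 (0.23). Trim30a was at 7.55, 6.20, 6.99 and 7.46 RPKM in LPS libraries labelled Lcn2-/-, 4.24, 3.56, 3.07 and 4.54 RPKM in wild type LPS libraries, 0.715, 0.851, 0.635 and 0.685 RPKM in saline libraries labelled Lcn2-/- and 0.716, 0.598, 0.645 and 0.776 RPKM in wild type saline libraries. Its wild type LPS libraries showed the same high replicate 4 and low replicate 3. For 5 single members the nearest gene was Ifit3 for Irgm1 (0.17), Rtp4 for Igtp (0.19), Gbp2b for Iigp1 (0.21), Icam1 for Ifi47 (0.25) and Osmr for Gm4951 (0.28).

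Other family genes in the table numbered 9 of 10 listed, and 5 passed the filter. Of these 5, Gm4841 and F830016B08Rik would not have passed without the LPS libraries labelled Lcn2-/-, so their inclusion rests on high values there and they are given as values with no test. Of the other 3, 2 rose and 1 fell with LPS labelled Lcn2-/- (20.7% of all genes tested were called higher and 27.7% lower). In wild type 1 rose and 1 fell (11.4% and 13.9%), and 2 were higher under the label after LPS (7.04% called higher). Gm4841, which lies between Gm4951 and Iigp1, was at 1.89, 1.33, 2.01 and 1.69 RPKM in LPS libraries labelled Lcn2-/- and at 0.438, 0.324, 0.290 and 0.581 RPKM in wild type LPS libraries. The LPS groups did not overlap, and its saline libraries lay at 0.0596 to 0.0790 RPKM labelled Lcn2-/- and 0.0664 to 0.0885 RPKM in wild type. Gm12250 lies beside Igtp, and GENCODE vM21 labels it a processed pseudogene at chr11:58187739-58189012. RefSeq places its start region ahead of that, at chr11:58183593-58183892, so the pseudogene label is not settled here. It was at 3.20, 2.45, 2.55 and 1.95 RPKM in LPS libraries labelled Lcn2-/- and at 0.9996, 0.753, 0.868 and 1.14 RPKM in wild type LPS libraries, 2.69-fold higher under the label (1.43 ± 0.38, limma adjusted p = 0.0206). Gm12250 passed the filter through LPS libraries of both labels only. F830016B08Rik was at 0.543, 0.439, 0.557 and 0.663 RPKM in LPS libraries labelled Lcn2-/- and at 0.342, 0.185, 0.140 and 0.420 RPKM in wild type LPS libraries, again without overlap.

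The remaining family genes behaved otherwise. Irgq, a divergent member, was at 10.5 to 10.8 RPKM in LPS libraries labelled Lcn2-/- and 9.98 to 10.5 RPKM in wild type LPS libraries, against 11.7 to 12.8 and 10.98 to 12.1 RPKM in the matching saline libraries. It fell slightly with LPS labelled Lcn2-/- (-0.17 ± 0.04, limma adjusted p = 0.00270) and in wild type (-0.16 ± 0.04, adjusted p = 0.00716). 9930111J21Rik2, next to Tgtp2, rose labelled Lcn2-/- (0.87 ± 0.13, adjusted p = 5.64e-05), did not pass in wild type (0.09 ± 0.13, adjusted p = 0.699) and had an interaction of 0.79 ± 0.18 (adjusted p = 0.0192). Its coding sequence is 99.6% identical to that of 9930111J21Rik1, so its reads may be shared. Irgc1, Gm5431, Gm12185 and 9930111J21Rik1 did not pass the filter.

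Guanylate-binding proteins, the larger interferon-induced GTPases that act with IRG effectors at pathogen vacuoles, moved in parallel. Of 7 tested, Gbp11 would not have passed without the LPS libraries labelled Lcn2-/-, and it is given as values with no test. Of the other 6, 6 rose with LPS labelled Lcn2-/- and 6 in wild type, 5 were higher under the label after LPS and 5 had a called positive interaction. Among all genes tested, 20.7%, 11.4%, 7.04% and 3.90% were called higher in the same order. Gbp2 rose by 5.55 ± 0.17 on the log2 scale labelled Lcn2-/- (limma adjusted p = 1.42e-12) and by 4.19 ± 0.17 in wild type (adjusted p = 3.77e-11). Gbp2b rose by 4.56 ± 0.15 labelled Lcn2-/- (adjusted p = 1.86e-12) and by 3.43 ± 0.15 in wild type (adjusted p = 6.83e-11). Gbp11 was at 0.609 to 0.877 RPKM in LPS libraries labelled Lcn2-/-, 0.237 to 0.402 RPKM in wild type LPS libraries, 0.200 to 0.315 RPKM in saline libraries labelled Lcn2-/- and 0.290 to 0.507 RPKM in wild type saline libraries. The lists named here and below were chosen with earlier results of these data known.

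Of the interferon ligand genes, 5 of 7 listed were in the table and 0 passed the filter. Ifng, which encodes interferon gamma, was at 0.191, 0.106, 0.154 and 0.203 RPKM in LPS libraries labelled Lcn2-/- and at 0.00803, 0.00714, 0.0119 and 0.00480 RPKM in wild type LPS libraries. In saline libraries it was at 0.0338, 0.0537, 0.0389 and 0.0850 RPKM labelled Lcn2-/- and at 0.0628, 0.0373, 0.0576 and 0.0373 RPKM in wild type. The LPS groups did not overlap, but all values are far below the filter, where the scale itself runs lower in LPS than in saline libraries, and no test is given. Receptors and kinases changed little: of 7 tested, 2 rose and 3 fell with LPS labelled Lcn2-/-, and 2 rose and 2 fell in wild type. Of all genes tested, 20.7% and 11.4% were called higher and 27.7% and 13.9% lower in the same order. Between the labels after LPS 0 were called. Ifngr1, a chain of the interferon gamma receptor, rose by 0.41 ± 0.07 labelled Lcn2-/- (limma adjusted p = 0.000144) and by 0.52 ± 0.07 in wild type (adjusted p = 2.44e-05). Jak1 rose by 0.27 ± 0.04 labelled Lcn2-/- and by 0.14 ± 0.04 in wild type, Tyk2 fell by 0.43 and 0.22 and Ifnar1 by 0.25 and 0.27 in the same order, and Jak2 did not pass (0.09 and 0.04).

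Transcription factors of the pathway moved with the members. Of 6 tested, 5 rose with LPS labelled Lcn2-/- and 6 in wild type, 4 were higher under the label after LPS and 3 had a called positive interaction. The shares of all genes tested that were called higher were 20.7%, 11.4%, 7.04% and 3.90% in the same order. Irf1, an activator that binds interferon-stimulated response elements, was at 8.01, 6.05, 8.05 and 6.84 RPKM in LPS libraries labelled Lcn2-/-, against 2.83, 2.46, 2.72 and 3.47 RPKM in wild type LPS libraries. It rose by 2.60 ± 0.12 labelled Lcn2-/- (limma adjusted p = 9.77e-11) and by 1.04 ± 0.12 in wild type (adjusted p = 7.78e-06), with an interaction of 1.56 ± 0.17 (adjusted p = 0.000231). Irf8 rose by 1.48 ± 0.14 labelled Lcn2-/- and by 0.57 ± 0.14 in wild type. Irf2 did not pass labelled Lcn2-/- (0.14 ± 0.06, adjusted p = 0.0728).

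Inhibitors of interferon signalling rose in 4 of 5 cases with LPS labelled Lcn2-/-, where 1 fell, and in 3 of 5 cases in wild type. Of all genes tested, 20.7% were called higher and 27.7% lower labelled Lcn2-/-, and 11.4% higher in wild type. Usp18, which removes ISG15 and blocks the type I receptor, rose by 3.48 ± 0.20 labelled Lcn2-/- (limma adjusted p = 1.27e-09) and by 2.34 ± 0.20 in wild type (adjusted p = 2.39e-07). Socs1, the feedback inhibitor of JAK kinases, rose labelled Lcn2-/- (1.63 ± 0.25, adjusted p = 7.92e-05) and did not pass in wild type (0.53 ± 0.25, adjusted p = 0.143), and the difference between these rises did not pass either (1.10 ± 0.36, adjusted p = 0.0638). Ptpn6 fell labelled Lcn2-/- (-0.45 ± 0.16, limma adjusted p = 0.0293). In wild type its geometric mean was 0.599 RPKM after LPS and 0.728 RPKM after saline, and it was not called. Ptpn1 rose in wild type (0.26 ± 0.05, limma adjusted p = 0.00161). It was also called higher labelled Lcn2-/-, at a geometric mean of 6.80 RPKM after LPS and 5.61 RPKM after saline.

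Genes for the Atg8 proteins and their conjugation, which IRG and guanylate-binding proteins need to load onto pathogen vacuoles, moved little. Of 15 tested, 3 rose and 2 fell with LPS labelled Lcn2-/-, where 20.7% of all genes tested were called higher and 27.7% lower. In wild type 2 rose and 1 fell, where 11.4% of all genes tested were called higher and 13.9% lower. The median log2 difference was 0.02 labelled Lcn2-/- and -0.03 in wild type. Atg4a rose by 0.53 ± 0.08 labelled Lcn2-/- and by 0.32 ± 0.08 in wild type, and Map1lc3b by 0.40 ± 0.05 and 0.20 ± 0.05. Atg4c fell by 0.38 and by 0.18 in the same order, Atg3 fell by 0.12 labelled Lcn2-/-, and Gabarapl1, the most abundant, did not pass (0.02 and -0.02).

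**Figure D5:**
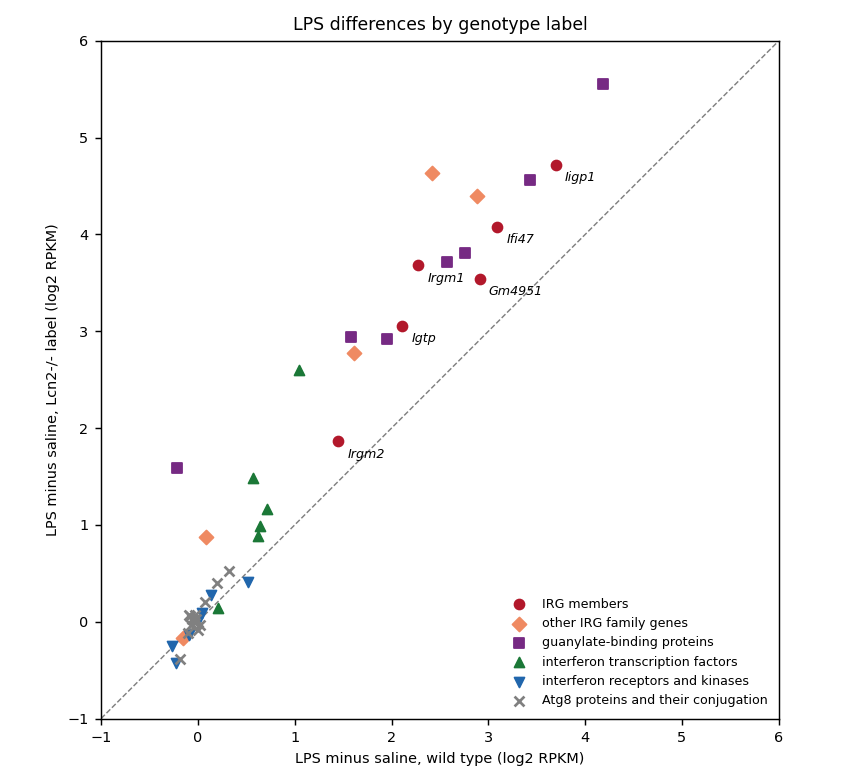
LPS minus saline difference in log2 RPKM labelled Lcn2-/- (vertical) against wild type (horizontal) for the tested genes of 6 lists; the dashed line marks equal differences. All 6 named IRG members and the 6 guanylate-binding proteins other than Gbp11 lie above the line, while receptors, kinases and Atg8 genes gather near 0. Gbp11, Gm4841 and F830016B08Rik are plotted too, but they passed the filter only through LPS libraries labelled Lcn2-/-, so their places are not independent of it.

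Markers of other cells moved with LPS beside the members. The summed RPKM of 7 neutrophil markers was 10.9 to 28.0 in LPS libraries labelled Lcn2-/-, 10.8 to 17.4 in wild type LPS libraries, 4.72 to 7.19 in saline libraries labelled Lcn2-/- and 2.78 to 8.97 in wild type saline libraries. Of 5 neutrophil markers that passed the filter, Camp and Retnlg would not have passed without the LPS libraries labelled Lcn2-/-, and they are not counted. The other 3, S100a8, S100a9 and Ngp, rose with LPS labelled Lcn2-/-, and 2 of them, S100a8 and S100a9, in wild type. Of all genes tested, 20.7% and 11.4% were called higher in the same order. Between the labels after LPS, 0 of these 3 were called. The 4 monocyte markers summed to 1.69 to 2.56, 1.66 to 2.04, 0.539 to 1.08 and 0.680 to 0.968 RPKM in the same order of groups. Of 2 monocyte markers that passed the filter, Plac8 would not have passed without the LPS libraries labelled Lcn2-/-, and it is not counted. The other, Ly6c2, was called higher with LPS in wild type (11.4% of all genes tested) but not labelled Lcn2-/- (20.7%). After LPS it was called lower under the label, as were 1517 of 17349 genes tested. The 8 markers of T and NK cells, which make interferon gamma, summed to 1.32 to 1.51, 1.47 to 1.64, 1.59 to 1.91 and 1.497 to 1.79 RPKM in the same order of groups. Cd4 alone passed the filter (-0.13 ± 0.09 with LPS labelled Lcn2-/-, limma adjusted p = 0.250, and 0.31 ± 0.09 in wild type, adjusted p = 0.0184). The others lay where the scale itself runs lower in LPS than in saline libraries, so these sums cannot be compared between injections. Microglia markers fell in 5 of 6 cases with LPS labelled Lcn2-/- and in 4 of 6 in wild type (27.7% and 13.9% of all genes tested were called lower). The falls were led by P2ry12 (-2.16 ± 0.11 and -2.07 ± 0.11), while C1qa rose in both. These markers summed to 86.5 to 96.4, 84.7 to 95.9, 98.0 to 102 and 98.0 to 104 RPKM in the same order of groups. Between the labels after LPS, the 5 red blood cell markers summed to 5.54 to 8.66 RPKM labelled Lcn2-/- and 3.72 to 5.35 RPKM in wild type, without overlap, and Hba-a1 was called higher (0.97 ± 0.31, adjusted p = 0.0476). In saline libraries they summed to 4.21 to 7.47 RPKM labelled Lcn2-/- and 4.91 to 11.8 RPKM in wild type. The 4 choroid plexus markers summed to 461 to 471 RPKM after LPS labelled Lcn2-/- and 414 to 453 RPKM in wild type, again without overlap, against 471 to 644 and 472 to 493 RPKM in the matching saline libraries, and 0 of 4 were called between the labels after LPS. Endothelial markers summed to 49.6 to 60.2 and 52.7 to 60.5 RPKM after LPS in the same order, with Cdh5 higher under the label (0.81 ± 0.09, adjusted p = 4.46e-05) and Pecam1 (-0.49 ± 0.08) and Ly6c1 (-0.78 ± 0.08) lower. No marker was listed at 0, and the part of cell numbers in the members' differences was not tested.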

How the data were processed

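RNA of 16 hemi-brains was prepared with standard Illumina protocols, per the labels. The deposited file holds values that the authors had taken to log2 RPKM by conditional quantile normalization, as its name states. Reads were placed on mm10, per the submitters' processing notes. No aligner, counting tool, annotation release, filter or strand setting is stated in the sources used here. Groups came from the genotype and injection labels, with 0 columns of values unused. Samples are separate by label, and p-values reflect only their spread.

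Symbols and positions came from GENCODE vM21 (32695 of 33289 IDs, 98.2%), promoters from RefSeq. limma 3.58.1 (R 4.3.3) fitted group means, moderated along the mean trend, to 17349 genes at a log2 RPKM of at least -1 in at least 3 libraries, with two-sided tests and Benjamini-Hochberg adjustment over all of them. The fit was tested on simulated data. Members, lists and tests were chosen with earlier results of these data known. Named genes were the 8 members, other family genes, the 2 largest called changes per pathway list, direction and LPS comparison, each list's most abundant uncalled gene, and the nearest profiles. Ifng and single cell markers were named after their values were seen. Some genes that this rule names are not reported here. Alternatives covered scale, filter, centring, GC content and length, variance model, groups in the fit, summed copies and each library left out.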

Additional observations from a re-analysis of the deposited data

Results flagged for a closer look

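The LPS rise differed between the labels by a test of the difference itself for 3 members. The rise labelled Lcn2-/- exceeded that in wild type by 1.40 on the log2 scale for Irgm1 (limma adjusted p = 0.00215), by 0.948 for Igtp (adjusted p = 0.0413) and by 0.987 for Ifi47 (adjusted p = 0.0438). Exact permutation of the labels within each injection gave p = 0.0192 for Irgm1, 0.0282 for Igtp and 0.0800 for Ifi47. In wild type LPS libraries, 1 Tgtp1 value lay far from the others: replicate 4, at 0.162 RPKM, was separated from the nearest by 0.851 of the group's range on the log2 scale, above Dixon's critical value for 4 samples. It was 1 of 32 groups of 4 libraries examined, and chance flags about 1 in 20.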

How the results depend on the processing

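The counts of members called kept their size under every alternative run for LPS labelled Lcn2-/- (5 to 6, all higher), for LPS in wild type (5 to 6), for the label after LPS (4 to 6) and for the label after saline (0), where 5 tested members is the most that the filter on a mean log2 RPKM of at least 0 leaves. The interaction count of 3 was 1 with no filter and 1 with limma without the mean trend, and 1 to 4 with 1 library left out. It was 1 without wild type LPS replicate 1, 2 or 3, wild type saline replicate 1, 3 or 4, LPS replicate 1 or 3 labelled Lcn2-/-, or saline replicate 3 labelled Lcn2-/-; the cause was not tested. Where the count was 1 the gene was Irgm1, whose call held in every fit. Iigp1's interaction was called on log2(RPKM + 0.5) (adjusted p = 0.0119). Of 759 member values under alternatives, 718 were marked unchanged, 31 lost a call, 8 gained one, 2 moved and 0 reversed sign with a call. Unchanged meant the same side of the threshold or, for the Tgtp copies, a shift below their mean SD within groups. For the Tgtp copies the fit with no filter is the main value itself. Uncalled estimates could change sign, as for Igtp between the labels after saline (-0.15 to 0.10 with 1 library left out). Without saline replicate 4 labelled Lcn2-/-, 6 members still rose labelled Lcn2-/-. With no filter the share of higher genes among all calls was 22.0% labelled Lcn2-/- and 16.8% in wild type, against 42.8% and 45.1%. No paired analysis was possible because the labels give no replicate numbers shared between groups. Depth is unknown, and values of Tgtp1, Tgtp2, Gm4951 and Ifng after saline lie where many genes share 1 value.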
